A study of Mus musculus with 16 samples.

Results

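Respiratory complex I, or NADH:ubiquinone oxidoreductase, is the entry point of the mitochondrial electron transport chain. It takes electrons from NADH, passes them over a flavin and a row of iron-sulphur clusters to ubiquinone, and pumps protons across the inner membrane. Its subunits come from both the nuclear and the mitochondrial genome. The nuclear core subunits and a larger number of accessory subunits are imported from the cytosol, and they meet the mitochondrially encoded ND subunits with the help of assembly factors that are absent from the finished enzyme. In hepatocytes the enzyme feeds oxidative phosphorylation.

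The genes described here are the 45 gene names of the array that begin with Nduf, out of 30214 gene names in all. They had 60 of the 39429 probes. These 45 genes comprised 7 core subunits (such as Ndufs1, Ndufs8 and Ndufv1), 29 accessory subunits and 7 assembly factors of the Ndufaf series. Ndufa4, which is now counted to complex IV, and its paralogue Ndufa4l2 made up the remaining 2 and were kept apart. Of the 60 probes, 58 passed the detection filter (2 or more of the 4 arrays of some group well above background), so that each of the 45 genes had a value. A probe of 44 of these genes was well above background on all 16 arrays. The exception was Ndufa4l2, whose single probe passed on 4, 4, 2 and 3 of 4 arrays in scramble subpolysomal, scramble polysomal, eIF6 shRNA subpolysomal and eIF6 shRNA polysomal RNA.

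AML12 cells, a non-tumourigenic line of mouse hepatocytes, carried an shRNA, either scramble or directed against eIF6, a factor that keeps the large ribosomal subunit from joining the small one too early. In both, doxycycline switched the shRNA on through an inducible lentiviral vector, and insulin was given for 1 h (the labels give both 100 nM and 100 mM). All 4 groups therefore shared doxycycline and insulin, and none lacked either. RNA of pooled light gradient fractions (subpolysomal) and of pooled heavy fractions (polysomal) was hybridized on 16 one-colour Agilent arrays, 4 from replicate cultures in each group.

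On polysomes the targeted Eif6 had log2 signals of 12.94 to 12.96 in scramble cells in all 4 replicates, beside a mean of 11.89 ± 0.08 (SD, n = 4) in eIF6 shRNA cells. In subpolysomes it had 11.53 to 11.66 and 11.49 to 11.74, where the groups overlapped. Between 20177 and 24953 probes per array were well above background. The 2 polysomal arrays of replicate 4 stood apart, with a median absolute deviation over genes from their group's median of 0.32 and 0.27, against 0.094 to 0.21 on the other arrays. Of 12 hepatocyte markers on the array, 9 were well above background on all 16 arrays, while Alb passed on 7, Cps1 on 8 and Apoa1 on 2. Of the 8 fibroblast markers, Lum was on no array, and the other 7 were called lower in eIF6 shRNA polysomes. Their unlogged signals were summed, and the log2 of the sum was 16.60 to 17.43 in scramble polysomes and 13.27 to 14.03 in eIF6 shRNA polysomes. In subpolysomes it was 16.56 to 16.70 and 14.92 to 15.59. For the 12 hepatocyte markers it was 18.38 to 18.97 and 18.52 to 19.00 on polysomes, and 18.24 to 18.36 and 18.30 to 18.42 in subpolysomes. Of these, 2 were called higher in eIF6 shRNA cells in each fraction and 0 lower, on polysomes Ttr (1.15) and Afp (1.26). The part of these differences in the changes of complex I genes was not tested. In RNA from whole cultures, fewer cells of a type and less RNA per cell cannot be told apart.

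Of the genes with several probes, 3 had probes that did not behave alike, and the start of each probe is shown because the result for the gene depends on which is read. The first 30 bases are given, 5′ to 3′, with the mm9 position of the whole probe of 60 bases. Capitals mark the 25 bases that the stretches shown for the overlapping probes of Ndufb11 have in common. By position the whole probes overlap further. What these positions hold in an mm9 annotation was not analysed here.
Ndufb11, first probe, chrX:20192453-20192512, minus strand: tcatcCGCTGCTTGTTATTTACCTGGTTCC
Ndufb11, second probe, chrX:20192448-20192507, minus strand: CGCTGCTTGTTATTTACCTGGTTCCtcaga
Ndufb11, outlying probe, chrX:20194630-20194689, minus strand: ttccctacagggccatctagatgtcaccgc
Ndufa3, first probe, chr7:3569447-3569506, plus strand: cagtttgactctgtaggcagaactcctcgg
Ndufa3, second probe, chr7:3571695-3571754, plus strand: atgcctctgctgatggaagaggccccttcc
Ndufv3, first probe, chr17:31665148-31665207, plus strand: gtgccagaaggaggctcccaggtccaggag
Ndufv3, second probe, chr17:31663758-31663817, plus strand: aagaaaagctattgccactccctccgtcct
Ndufv3, last probe, chr17:31668209-31668268, plus strand: ggtagaccccgatgttggttcccatgaatc

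The first question was how the transcripts were divided between polysomes and lighter fractions. In scramble cells most nuclear complex I transcripts had more signal in polysomal than in subpolysomal RNA. Of the 45 genes, 33 (73.3%) were called higher on polysomes, where 31.7% of all 19365 genes tested were, and 4 were called lower, against 28.4% (limma, adjusted p under 0.05). In eIF6 shRNA cells 33 were called higher, against 32.1% of all genes, and 6 lower, against 28.7%. The higher call was made in both cell lines for 31 genes and the lower call for 4. Over all genes the calls shared by both lines were not counted, and they can be at most 31.7% and 28.4%. Equal amounts of signal were forced on both fractions by the normalization, so these differences are relative to the other transcripts of the array.

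The median difference was 0.80 on the log2 scale over the 36 subunits, 0.43 over the 7 assembly factors and 0.035 over all genes in scramble cells. In eIF6 shRNA cells the medians were 0.80, 0.45 and 0.034. The subunit median lay between 0.72 and 0.91 on each of the 4 slides in scramble cells and between 0.75 and 0.95 in eIF6 shRNA cells. For the assembly factors these ranges were 0.29 to 0.52 and 0.35 to 0.50. The ranges of the 2 classes did not overlap, but the genes of a class are not replicates and the classes were not tested against each other. With scaling to spike-in probes, or with quantile normalization of each fraction alone, the median of all genes rose to 1.52 and 1.38 in scramble cells. The split of calls became 44 higher and 0 lower and 45 higher and 0 lower. Most of all 19365 genes were then called higher too, with 13414 higher and 396 lower, and 15786 higher and 899 lower. The lead of a class over the median of all genes depended on the scale. For the assembly factors it was 0.40 in scramble and 0.41 in eIF6 shRNA cells, and 0.64 and 0.83 with either the 75th percentile or the spike-in probes as the scale, and 0.68 and 0.81 with fraction-wise normalization. For the subunits it was 0.77 in scramble cells and 0.98 under all 3 alternatives. Relative to the median of all genes, 36 of the 45 genes lay above it in the main analysis and 37 under each of these scalings.

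**Figure D1:**
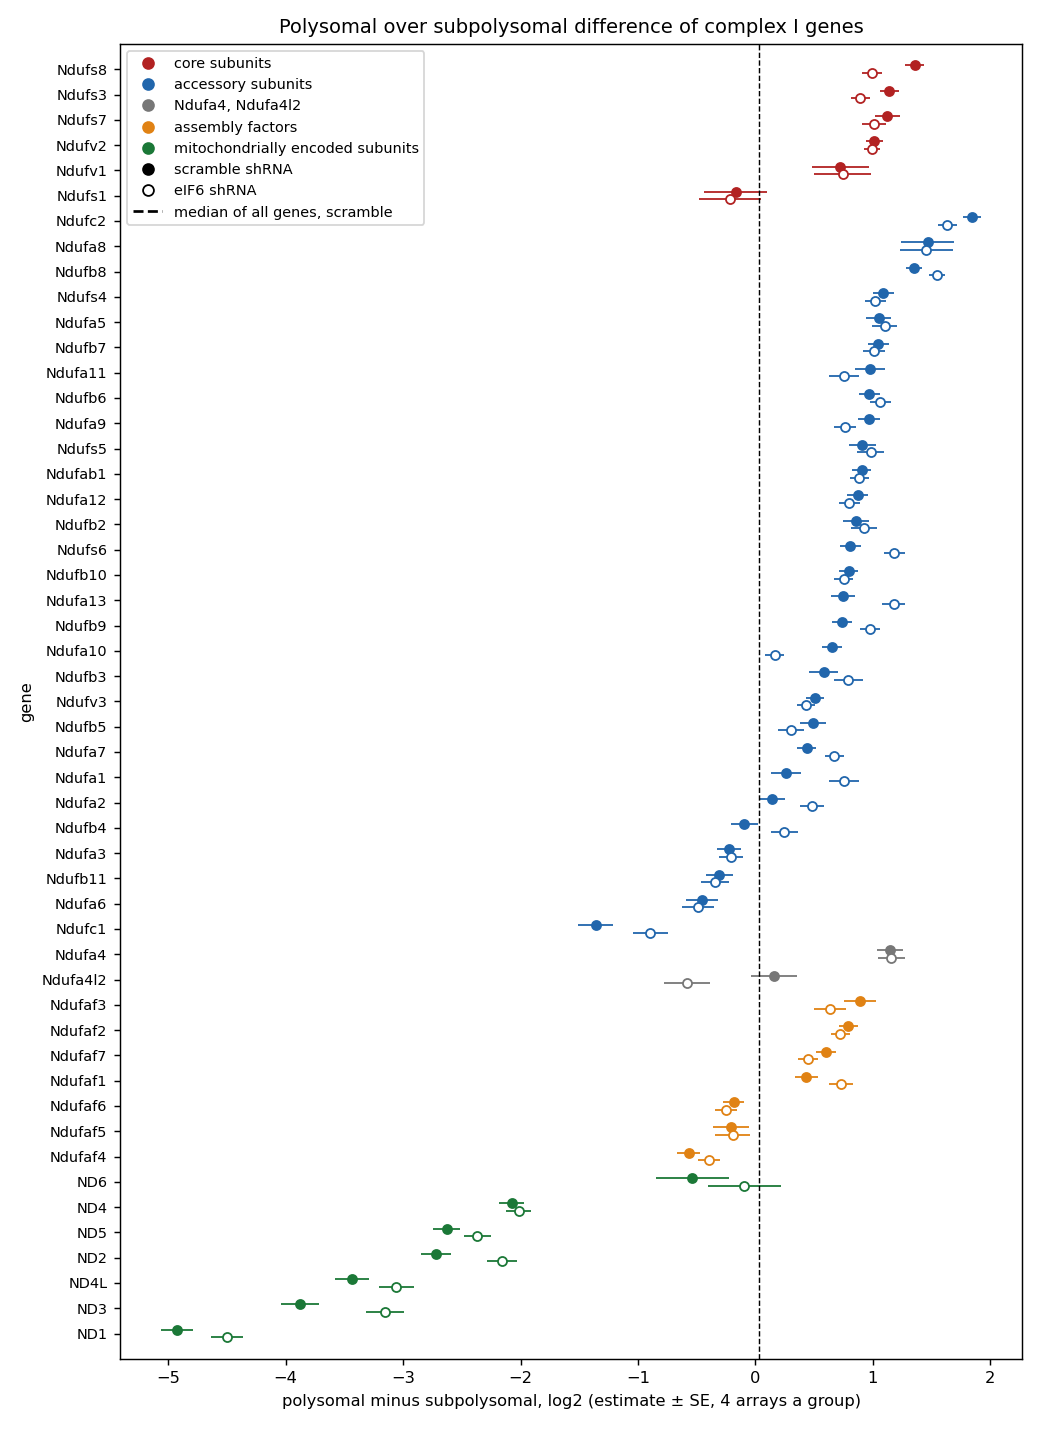
Polysomal minus subpolysomal difference on the log2 scale (horizontal axis, estimate ± SE, 4 arrays per group) for 44 of the 45 Nduf genes and the 7 mitochondrially encoded ND genes (vertical axis), with filled circles for scramble and open circles for eIF6 shRNA cells. Of the 35 subunits drawn, 29 lie right of 0 in both cell lines, while the ND genes lie left of 0.

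Among the core subunits, which carry the flavin, the iron-sulphur clusters and the quinone site, 6 of 7 were called higher on polysomes in scramble cells. The median of the 7 was 1.01. Ndufs8, an iron-sulphur protein, had log2 signals of 11.48, 11.58, 11.61 and 11.80 in scramble subpolysomes and 12.94, 12.99, 13.03 and 12.93 on scramble polysomes. Every polysomal array was above every subpolysomal one. The difference was 1.36 in scramble and 0.99 in eIF6 shRNA cells. Ndufs3 (1.14 and 0.89), Ndufs7 (1.13 and 1.01) and Ndufv2 (1.01 and 0.99) were close behind. Ndufv1, the NADH-binding subunit, had 0.72 and 0.75.

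Ndufs1, the largest subunit of the NADH-oxidizing arm, was the core subunit without a call. Its log2 signals were 12.31, 12.43, 12.44 and 12.27 in scramble subpolysomes and 12.02, 11.92, 11.80 and 13.04 on scramble polysomes. In eIF6 shRNA cells they were 12.48, 12.61, 12.73 and 12.72, and 11.95, 12.08, 12.47 and 13.18. The polysomal array of replicate 4 was the highest in both cell lines. Ndufv1 was also highest on those arrays, at 15.07 beside 13.91 to 14.22 in scramble and at 15.25 beside 14.17 to 14.84 in eIF6 shRNA polysomes.

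The 3 genes with the largest differences in scramble cells were Ndufc2, Ndufa8 and Ndufs8. Ndufc2, an accessory subunit of the membrane arm, had 12.31, 12.57, 12.43 and 12.42 in subpolysomes and 14.37, 14.28, 14.34 and 14.13 on polysomes. The difference was 1.85 (SE 0.081), or 3.59-fold, and 1.64 in eIF6 shRNA cells. Ndufa8 had a difference of 1.47 and 1.46, with a larger SE of 0.23. At the other end, Ndufc1, also of the membrane arm, had 14.76, 14.83, 14.63 and 14.89 in subpolysomes and 13.54, 13.47, 13.70 and 12.95 on polysomes. No array overlapped, and the difference was -1.36 (SE 0.15) in scramble and -0.89 in eIF6 shRNA cells. Ndufaf4 (-0.57 and -0.39) and Ndufa6 (-0.46 and -0.49) followed. Relative to the median of all genes, Ndufc1 stayed lower with spike-in scaling (-0.97) and with normalization of each fraction alone (-1.02), where its own difference turned to 0.55 and 0.37. Under those scalings Ndufaf4 lay -0.16 and -0.14, and Ndufa6 -0.068 and -0.083, from that median.

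The assembly factors were divided. Ndufaf3 (0.89, SE 0.13), Ndufaf2 (0.79, SE 0.079), Ndufaf7 (0.60, SE 0.085) and Ndufaf1 (0.43, SE 0.10) were called higher on polysomes in scramble cells. Ndufaf4 was called lower (-0.57, SE 0.10). Ndufaf5 (-0.21, SE 0.15) and Ndufaf6 (-0.19, SE 0.093) were not called. Ndufaf3 and Ndufaf4 are partners in the early assembly of the quinone module, and their differences had opposite signs, with Ndufaf4 turning to 1.36 and 1.24 under spike-in scaling and fraction-wise normalization. Ndufa4 had 1.15 (SE 0.11) and Ndufa4l2 0.16 (SE 0.20).

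The mitochondrially encoded subunits, which are translated on the ribosomes of the organelle, went the other way. Of the 7 ND genes, 6 were called lower in polysomal RNA in each cell line, where 28.4% (scramble) and 28.7% (eIF6 shRNA) of all genes were. Their median was -2.72 in scramble and -2.37 in eIF6 shRNA cells. The largest differences in scramble cells were those of ND1 (-4.93), ND3 (-3.88) and ND4L (-3.43). ND1 had log2 signals of 15.95, 15.88, 15.95 and 16.25 in scramble subpolysomes and 10.96, 10.72, 11.49 and 11.16 on polysomes. ND6, named after its value was seen, was the gene without a call (-0.54 and -0.095). Relative to the median of all genes the 7 lay between -4.96 and -0.57 in scramble cells, and with spike-in scaling between -4.82 and -0.49. The file places 5 of the 7 probes on the mitochondrial chromosome and those of ND3 and ND4L on chromosome 1, so that signal of a nuclear copy was not separated from theirs.

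Where a gene had more than 1 kept probe (11 of the 45 genes), the probes could be compared. The median spread between probes of a gene was 0.14 on the log2 scale in the polysomal over subpolysomal difference of scramble cells. Ndufb11, an X-linked accessory subunit, was far above it at 2.49. Its overlapping probes gave 0.55 (SE 0.098) and 0.46 (SE 0.10), and its outlying probe, which lies 2182 bases from the second, gave -1.93 (SE 0.19). All 3 were called. The outlying probe was dimmer, with a mean log2 signal of 9.84 in scramble subpolysomes beside 15.97 and 15.84 for the overlapping probes. The mean of the 3, -0.31, therefore had the sign of the outlying one, and the brightest probe gave 0.55. Ndufa3 had probes at -0.63 and 0.18, of which the first was called. Their mean signals in scramble subpolysomes were 7.85 and 15.93. The second probe of Ndufv3 had 5.44 there, beside 7.79 for the first and 14.62 for the last. In the subpolysomal comparison of the shRNAs, the same outlying probe of Ndufb11 (0.82, adjusted p = 0.00559 from limma), the first probe of Ndufa3 (0.42, adjusted p = 0.0131) and the second probe of Ndufv3 (0.48, adjusted p = 0.0416) were called higher, and their partners were not called. In the polysomal comparison the first probe of Ndufv3 was called higher (0.37, adjusted p = 0.0285 from limma). Its second and last probes, at -0.061 and 0.099, were not called there.

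**Figure D2:**
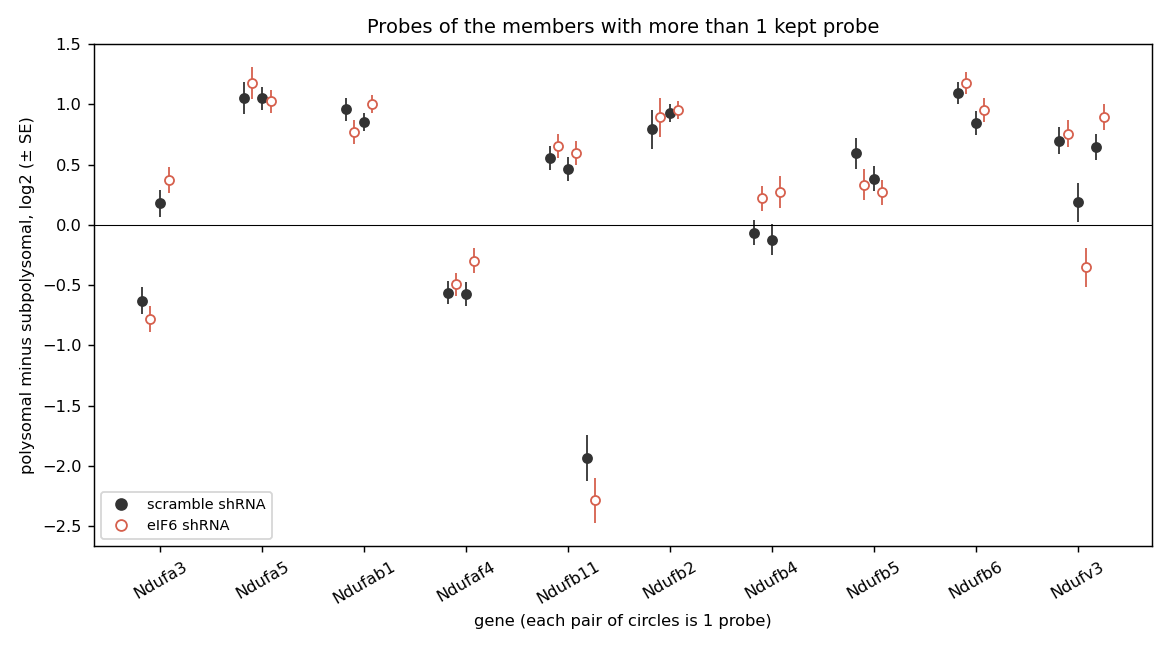
Polysomal minus subpolysomal difference on the log2 scale (vertical axis, estimate ± SE, 4 arrays per group) for each kept probe of 10 of the 11 genes with more than 1 kept probe (horizontal axis), in scramble (filled) and eIF6 shRNA cells (open). The outlying probe of Ndufb11 lies at -1.93 and -2.29, far below the overlapping pair.

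The second question was what depletion of eIF6 did to these transcripts on polysomes. Of the 45, 4 were called lower, where 10.7% of all genes were, and 2 were called higher, against 11.1% (eIF6 shRNA minus scramble, limma). The lower genes were Ndufa4l2, Ndufaf6, Ndufaf2 and Ndufa12, and the higher genes were Ndufa6 and Ndufa10. The median change was 0.083 over the 36 subunits and 0.0074 over the 7 assembly factors, beside 0.016 over all genes. Of the 7 core subunits 0 were called by limma, and 1 had an unadjusted p under 0.05. The calls depended on the arrays. Without replicate 1, 2 or 3 the number called higher was 0, and without replicate 4 it was 5. The number called lower was 2, 4, 2 and 5. Over all genes, higher calls went from 2145 to 1310, 1306, 1355 and 2626 without replicate 1, 2, 3 and 4 in turn. Lower calls went from 2073 to 1469, 1535, 1467 and 2371. Without the polysomal arrays of replicate 4 alone, 5 members were called lower and 4 higher, beside 2157 and 2385 of all genes.

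Both assembly factors that changed on polysomes were lower. Ndufaf2, a chaperone of late assembly and a paralogue of the subunit Ndufa12, had log2 signals of 12.06, 12.06, 11.97 and 11.94 on scramble polysomes and 11.70, 11.81, 11.70 and 11.47 on eIF6 shRNA polysomes. All 4 eIF6 shRNA arrays were below all 4 scramble arrays. The change was -0.34 (SE 0.079, adjusted p = 0.00572), a 1.26-fold decrease, and it was called in 16 of 18 other settings. Ndufaf6, needed early in assembly, had 9.42, 9.31, 9.48 and 9.33 in scramble and 9.17, 9.16, 8.89 and 8.83 in eIF6 shRNA polysomes, again without overlap. It fell by 0.37 (SE 0.093, adjusted p = 0.00868), and was called in 16 of 18. Ndufa12 itself changed by -0.27 (SE 0.091, adjusted p = 0.0491) with overlapping groups, and was called in 6 of 18 settings.

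Ndufa4l2, a paralogue of Ndufa4 known from hypoxic cells, changed most. Its signals were dim, at 4.67, 4.28, 4.69 and 4.46 on scramble polysomes and 3.67, 3.46, 3.06 and 3.40 on eIF6 shRNA polysomes. The groups did not overlap, and the change was -1.13 (SE 0.20, adjusted p = 0.000609), a 2.19-fold decrease. The probe was well above background on all 4 scramble and 3 of 4 eIF6 shRNA polysomal arrays. The change was below 0 on each of the 4 slides and reached -1.27. Ndufa4 changed by -0.28 (SE 0.11), which was not called.

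The higher genes were accessory subunits. Ndufa6, a protein that binds the acyl carrier Ndufab1, changed by 0.45 (SE 0.14, adjusted p = 0.0255), with 13.68, 13.78, 14.02 and 13.36 in scramble and 14.30, 14.19, 14.33 and 13.83 in eIF6 shRNA polysomes. A single eIF6 shRNA array lay within the scramble range. Ndufa10, a membrane arm subunit, had 12.24, 12.32, 12.30 and 12.50 and then 12.58, 12.58, 12.61 and 12.63, without overlap, for a change of 0.26 (SE 0.084, adjusted p = 0.0378). With spike-in scaling, under which the median of all genes fell by 0.47, Ndufa6 was at -0.023 and Ndufa10 at -0.18, or 0.45 and 0.29 above that median. Of the 7 ND genes, 3 were called higher (ND3 by 0.58, ND2 by 0.44 and ND1 by 0.41), where 11.1% of all genes were. The groups overlapped for each of them. The number called higher was 1 with the 75th percentile as the scale, 0 with spike-in scaling and 2 with each fraction normalized alone. Spike-in scaling put ND2 and ND1 at -0.10 and -0.038, or 0.37 and 0.44 above the median of all genes.

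The same comparison in subpolysomal RNA gave more calls. Of the 45 genes, 6 were called lower, against 12.4% of all genes, and 8 higher, against 11.9%. The lower genes were the accessory subunits Ndufb4, Ndufa5 and Ndufa13 and the assembly factors Ndufaf6, Ndufaf4 and Ndufaf2. The higher genes included Ndufa10, Ndufaf3, Ndufa6, Ndufs8, Ndufb11, Ndufb5 and Ndufc2. The medians were 0.014 over the subunits, -0.030 over the assembly factors and 0.025 over all genes. With the 75th percentile of each array as the scale, 1 was called lower and 9 higher, and with spike-in scaling 0 and 0. Of all genes these were 1897 and 2335, and 345 and 43. Without replicate 1, 2 or 3 the number of members lower was 0 and the number higher 3, 4 and 4. Without replicate 4 they were 12 and 9. Over all genes, lower calls went from 2394 to 1407, 1449, 1545 and 3111 without replicate 1, 2, 3 and 4 in turn. Higher calls went from 2295 to 1220, 1328, 1358 and 3049.

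**Figure D3:**
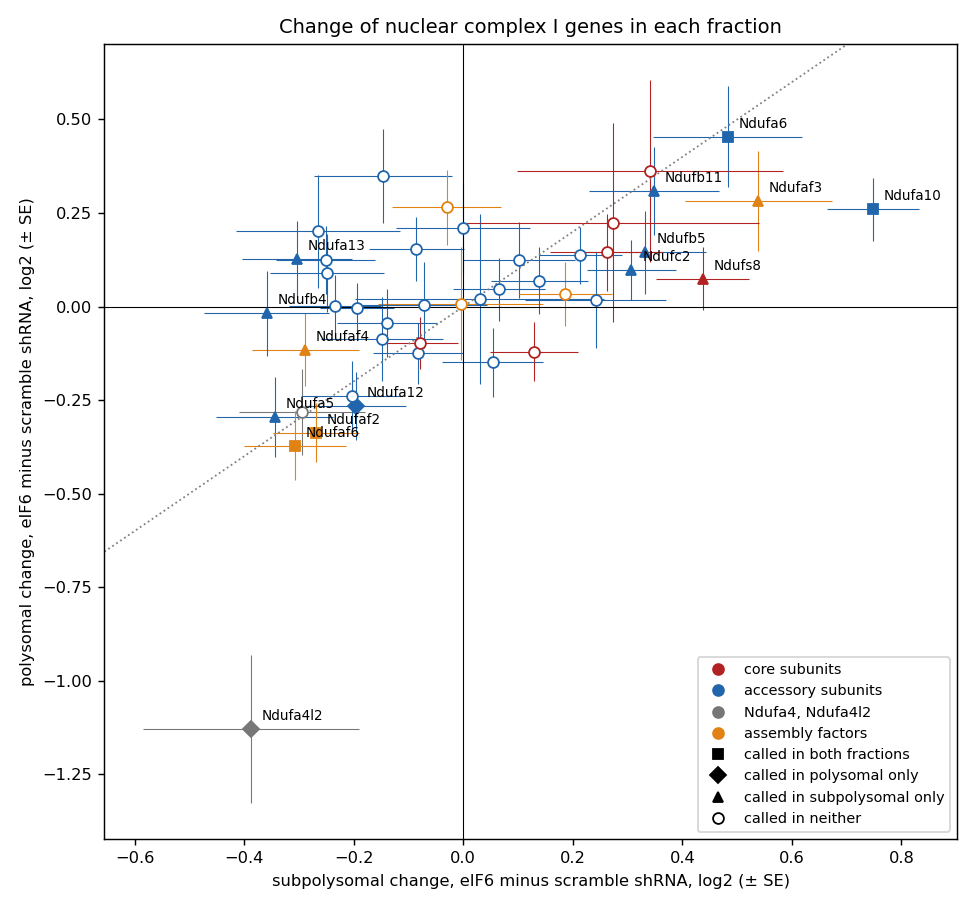
Change in polysomal RNA (vertical axis) against change in subpolysomal RNA (horizontal axis), eIF6 shRNA minus scramble, log2, estimate ± SE with 4 arrays per group, for 44 of the 45 Nduf genes. The dotted line marks equal change in both fractions. Of the genes drawn, 15 were called in at least 1 fraction (filled), 2 lower and 2 higher in both. Of all genes, 10.7% were called lower and 11.1% higher on polysomes, and 12.4% and 11.9% in subpolysomes. The share of all genes called in either fraction or in both was not counted.

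Ndufa10 had the largest subpolysomal change. Its log2 signals were 11.59, 11.55, 11.76 and 11.86 in scramble and 12.38, 12.51, 12.48 and 12.37 in eIF6 shRNA subpolysomes. The change was 0.75 (SE 0.084, adjusted p = 1.27e-05), or 1.68-fold, and between 0.65 and 0.83 within the slides. Its single probe spans positions 94361039 to 94363996 of chromosome 1 on the minus strand of mm9, so that it crosses at least 1 intron.

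Of the 7 core subunits, 2 were called higher here and 0 lower. Ndufs8 had 11.48, 11.58, 11.61 and 11.80 in scramble and 12.05, 12.08, 12.09 and 11.99 in eIF6 shRNA subpolysomes, a change of 0.44 (SE 0.085, adjusted p = 0.00156). Replicate 4 was the highest of the scramble arrays and the lowest of the eIF6 shRNA arrays. Ndufs8 and Ndufa10 were each called in 17 of 18 other settings, the exception being spike-in scaling. Ndufv2 had a change of -0.078 and Ndufv1 of 0.34, neither of them called, and 6 of the 7 core subunits were above 0.

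The assembly factors moved in both directions in subpolysomes. Ndufaf3 had 9.21, 9.27, 9.36 and 9.70 in scramble and 9.85, 9.99, 9.89 and 9.97 in eIF6 shRNA cells, for a change of 0.54 (SE 0.13, adjusted p = 0.00895). Ndufaf6 (-0.31, SE 0.093, adjusted p = 0.0254), Ndufaf4 (-0.29, SE 0.10, adjusted p = 0.0437) and Ndufaf2 (-0.27, SE 0.079, adjusted p = 0.0220) were lower. Ndufaf7, a methyltransferase of assembly, had 0.19, Ndufaf1 had -0.030 and Ndufaf5, which hydroxylates Ndufs7, had -0.0049, none of them called. Ndufaf2 and Ndufaf6 were thus lower in both fractions, and Ndufa6 and Ndufa10 higher in both.

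Among the accessory subunits, Ndufb4 (-0.36, SE 0.11), Ndufa5 (-0.34, SE 0.11) and Ndufa13 (-0.30, SE 0.10) were lower in subpolysomes. Ndufa6 (0.48, SE 0.14), Ndufb11 (0.35, SE 0.12), Ndufb5 (0.33, SE 0.11) and Ndufc2 (0.31, SE 0.081) were higher. Each of the calls other than those of Ndufa6 and Ndufc2 was lost in at least 5 of 18 settings. The value of Ndufb11 rests on its outlying probe, since the overlapping probes changed by 0.12 and 0.10.

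**Figure D4:**
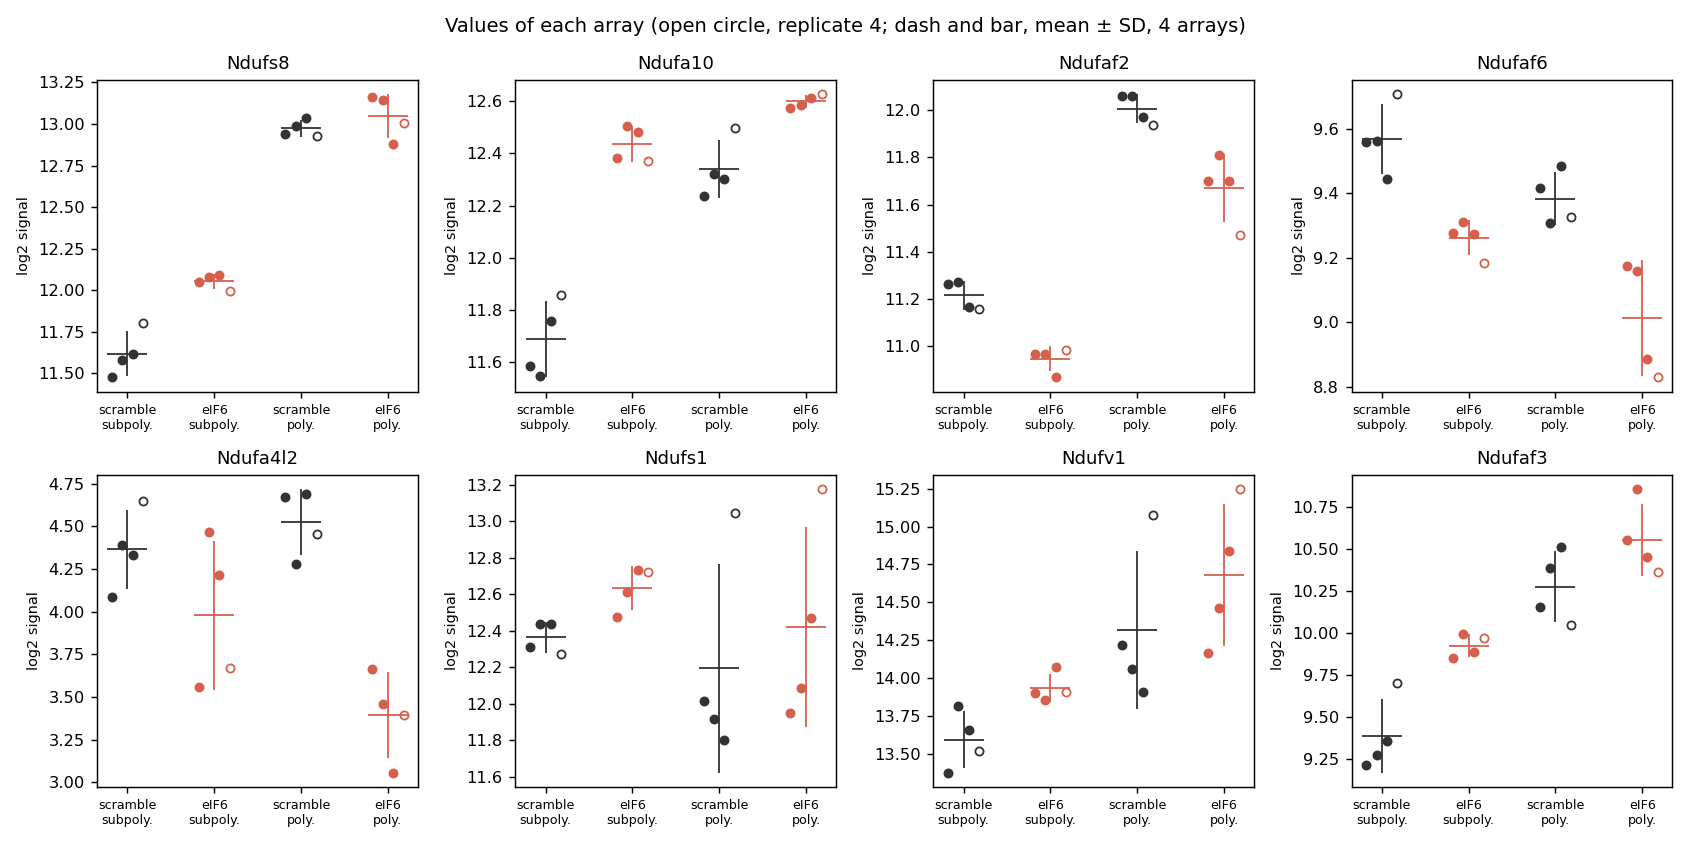
Normalized log2 signal (vertical axis) of every array for 8 genes, by group (horizontal axis), in scramble (dark) and eIF6 shRNA cells (red), with open circles for replicate 4 and dashes with bars for the mean ± SD of 4 arrays. In Ndufaf2 and Ndufaf6 the eIF6 shRNA arrays lie below the scramble arrays in both fractions, and in Ndufs1 the polysomal arrays of replicate 4 lie at 13.04 and 13.18, away from the others.

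The third question was translational efficiency, the polysomal change minus the subpolysomal change. No complex I gene was called in either direction, where 1.11% of all genes were called lower and 0.403% higher (limma). At an unadjusted p under 0.05 there were 10 of 45, 5 of them above and 5 below 0, beside 2421 of 19365 genes. The median was -0.019 over the 36 subunits, -0.065 over the 7 assembly factors and 0.017 over all genes. In 6 of the 7 core subunits the value was below 0, with a median of -0.12, and the median was between -0.33 and -0.080 on each of the 4 slides.

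The values closest to a call were those of Ndufa10, Ndufa13 and Ndufs8. Ndufa10 had -0.49 (95% confidence interval -0.74 to -0.23, adjusted p = 0.0591), with the same sign on all 4 slides. It was called in 7 of 18 other settings, with values from -0.52 to -0.47. Ndufa13, named after its value was seen, had 0.43 (interval 0.13 to 0.73), and Ndufs8 had -0.36 (interval -0.62 to -0.11). Without replicate 4, 2 members were called lower and 2 higher (181 and 114 of all genes), among them Ndufa10 (-0.52), Ndufa1 (0.53) and Ndufa13 (0.51). For 19 of the 45 genes the interval held a change of 0.5 or -0.5, so that a change of that size was not excluded for them. The interval of Ndufs1 was widest, from -0.86 to 0.76.

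Other genes of the pathway were read from lists of names. Of 13 further assembly factors, 10 were tested. On polysomes 2 were higher (Lyrm2 by 0.43 and Sfxn4 by 0.31) and in subpolysomes 2 were higher (Sfxn4 by 0.56 and Tmem126b by 0.39), with none lower. Of all genes, 11.1% were higher and 10.7% lower on polysomes, and 11.9% and 12.4% in subpolysomes. The median polysomal over subpolysomal difference of the 10 was 0.11 in scramble cells, with 4 called higher and 3 lower, against 31.7% and 28.4% of all genes. Of 58 tested genes of complexes II to V, 29 (50%) were called higher on polysomes in scramble cells and 10 (17.2%) lower, with a median of 0.47. After depletion of eIF6, 7 of these (12.1%) were higher and 2 (3.45%) lower on polysomes, 9 (15.5%) higher and 6 (10.3%) lower in subpolysomes. In efficiency limma called 0 of them in either direction, and 12 had an unadjusted p under 0.05.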

How the data were processed

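The study hybridized polysomal and subpolysomal RNA of AML12 cells with a scramble or an eIF6 shRNA on 16 one-colour Agilent arrays, 4 per group, on 4 slides with 1 array from every group on each. As deposited by the authors, the files hold the intensity of each spot, corrected for background by the scanner software and not normalized between arrays, and a log2 table that they quantile normalized (column medians 4.64, correlation of each column with its own array between 0.995 and 1.00). Per the file headers, Feature Extraction 10.7.3.1 was used at 5 µm, whereas the submitters' processing notes name 10.7.7.1.

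Computation was done in R 4.3.3. Spots flagged as uneven or outlying were dropped (45 values of kept probes missing, and a gene's mean then has no value on that array), spots of a probe averaged, and probes kept where 2 or more arrays of any group were well above background (25260 probes, 19365 genes). Log2 values were quantile normalized, and kept probes averaged per gene name. limma 3.58.1 fitted 4 group means and 5 contrasts, with Benjamini-Hochberg adjustment over all genes and a threshold of 0.05. No pair of arrays was identical and no spot saturated. The number of arrays limits the precision. The procedure was tested on simulated data, in which 100 of 19320 genes were changed at each size in eIF6 shRNA polysomes. It called 31% of simulated log2 changes of 0.5 on polysomes and 13% in efficiency. Of changes of 1 it called 75% and 46%, so many changes of these sizes would be missed in efficiency. On polysomes far more genes were called in the data (2073 lower and 2145 higher) than were changed in the simulation. The adjustment for multiple testing depends on that number, so the polysomal shares need not hold for the data. Besides these, 18 other settings were run (scaling, background, filter, probe rule, the authors' table, slide or replicate number as a block, each replicate left out), of which 1, without the polysomal arrays of replicate 4, was chosen after seeing the data. The members and gene lists were chosen with earlier results of these data known.

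Named with values are the core subunits, Ndufa4, Ndufa4l2, the assembly factors, members called in a change (up to the 8 largest a direction), the 3 highest and 3 lowest polysomal over subpolysomal differences, and members with a called probe of another sign than its partners. Other genes are named where called, up to 3 a direction. The values of 1 member are not reported here, though the counts and medians hold it. Near copies and pseudogenes of several members could share signal and were not separated. A planned comparison with protein length was not run, because no protein table was used here.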

Additional observations from a re-analysis of the deposited data

Results flagged for a closer look

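In 3 of 116 sets of 4 arrays of a named gene, 1 array lay far from the other 3, with a gap to the nearest that exceeded Dixon's critical value as a share of the range. Chance alone gives about 1 such set in 20. Ndufa4 had 13.40 on the replicate 4 array of scramble subpolysomes, beside 13.65 to 13.69 on the others. Ndufa5 had 14.14 on the replicate 4 array of eIF6 shRNA polysomes, beside 14.38 to 14.43. Ndufaf2 had 10.87 on the replicate 3 array of eIF6 shRNA subpolysomes, beside 10.97 to 10.98. No member's change in translational efficiency was called, so none of the effects of the shRNA was shown to differ between the fractions.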

How the results depend on the processing

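Under the other settings 310 counts and medians stayed within 1.5 times the main count or within the spread of slides, and 50 did not. With the 75th percentile as the scale, the members called were 1 higher on polysomes, 1 lower in subpolysomes and 1 lower in efficiency (Ndufa10). Of all genes these were 1985, 1897 and 427. The leads over the median of all genes were 0.98 for subunits and 0.64 for assembly factors in scramble cells. In eIF6 shRNA cells the lead was 0.83 for assembly factors. With spike-in scaling 1 member was lower and 0 higher on polysomes, and 0 changed in subpolysomes. In either cell line 0 were lower on polysomes than in subpolysomes, and the leads were 0.98, 0.64 and 0.83. Of all genes, 1056 were lower and 101 higher on polysomes, and 345 and 43 in subpolysomes. On polysomes against subpolysomes, 396 genes were lower in scramble and 494 in eIF6 shRNA cells. With each fraction normalized alone, 10 were lower in subpolysomes, 1 lower in efficiency and 0 lower on polysomes than in subpolysomes. The leads were 0.98, 0.68 and 0.81. Of all genes, 2302 were lower in subpolysomes, 340 in efficiency, and 899 (scramble) and 840 (eIF6 shRNA) on polysomes against subpolysomes. Normexp gave 5 higher on polysomes, 10 lower in subpolysomes and 1 lower in efficiency (2255, 2466 and 390 of all genes). Without a detection filter there were 1 higher on polysomes and 3 lower in subpolysomes (1731 and 2164 of 30214 genes). Detection on all 4 arrays of a group, on all 16 arrays, or limma's trend and robust options gave 1 lower in efficiency each. Of all genes these were 286 of 17215, 227 of 14567 and 265 of 19365. Without the polysomal arrays of replicate 4, 4 were higher on polysomes, and 12 were lower and 11 higher in subpolysomes.

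With each replicate left out in turn, members called lower and higher ranged from 2 to 5 and 0 to 5 on polysomes. They ranged from 0 to 12 and 3 to 9 in subpolysomes, and 0 to 2 and 0 to 2 in efficiency. Over all genes the ranges were 1467 to 2371 and 1306 to 2626 on polysomes. They were 1407 to 3111 and 1220 to 3049 in subpolysomes, and 54 to 181 and 20 to 114 in efficiency. For polysomal over subpolysomal RNA, members called lower ranged from 2 to 4 in scramble and 3 to 6 in eIF6 shRNA cells. Over all genes these were 4712 to 5671 and 4665 to 5754. The subunits' lead in eIF6 shRNA cells ranged from 0.75 to 0.88. The cause of these shifts was not tested.

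Among the values of named genes, signs turned in 32 that were called in the main or the other setting. In 92 more they turned without a call in either, and those are not listed. In polysomal over subpolysomal RNA of scramble cells, spike-in scaling and fraction-wise normalization gave 1.17 and 1.00 for Ndufa3, 1.45 and 1.30 for Ndufa6, 1.36 and 1.24 for Ndufaf4, 1.37 and 1.28 for Ndufaf5, 1.56 and 1.45 for Ndufaf6, 1.06 and 0.85 for Ndufb11, 1.82 and 1.68 for Ndufb4, 0.55 and 0.37 for Ndufc1, and 1.77 and 1.66 for Ndufs1. In eIF6 shRNA cells they gave 1.11 and 1.23 for Ndufa6, 1.32 and 1.40 for Ndufaf4, 0.73 and 0.86 for Ndufc1, and 1.51 and 1.62 for Ndufs1. These scalings raised the median of all genes by over 1.2, and Ndufc1 was below that median in each. On polysomes, spike-in scaling gave -0.18 for Ndufa10, -0.023 for Ndufa6, -0.038 for ND1 and -0.10 for ND2. In scramble cells Ndufa13 had -0.058 with the 75th percentile, and Ndufb11 0.55 with its brightest probe.

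Deviations from the group means had correlations of -0.16 to 0.41 between same-numbered arrays, with 2 of 16 above 0.1. For arrays on a slide these were -0.07 to 0.26 and 8 of 16. Both same-numbered pairs above 0.1 joined polysomal arrays of the 2 cell lines. Between the 2 fractions of a cell line, same-numbered arrays reached at most 0.030. Such a correlation cannot show whether equal numbers mark fractions of the same culture. With the replicate number as a block, 3 members were lower and 2 higher on polysomes and 6 and 8 in subpolysomes. With the slide as a block these were 3 and 3, and 7 and 8. Over all genes the counts were 2003 and 2087, and 2311 and 2257, with the replicate number. They were 2209 and 2285, and 2617 and 2595, with the slide. Among the alternatives that kept all arrays and the same scale, no sign of a called value turned apart from Ndufb11.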
